A study of Mus musculus with 17 samples.

Results

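Integrins and tetraspanins are surface proteins through which blood cells hold on to matrix, vessel walls and each other. An integrin pairs an alpha chain with a beta chain, and the pair decides which ligand is bound; blood cells carry it in an inactive state until talin and kindlin bind the beta chain tail from inside the cell. Tetraspanins are small proteins that cross the membrane repeatedly and gather integrins, immunoglobulin superfamily proteins and proteases into microdomains. The set here was a list of 42 mouse genes of both families chosen by name, and 41 of the 20227 genes measured belonged to it: 15 integrin alpha chains, 5 integrin beta chains and 21 tetraspanins. The tetraspanin gene Tspan7 was not analysed here.

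The cells were 32D, an immortalised mouse myeloblast-like line that depends on interleukin 3 (IL-3), and RNA of 17 cultures was measured on biotin-labelled exon arrays. In 9 cultures the cells had been transduced with human mt FLT3, receptors that carry internal tandem duplications (ITD), which make the receptor signal without its ligand in leukaemia. Each culture held its own mutant and is called line 1 to line 9. The other groups, with 2 arrays each, were cells transduced with human wild-type FLT3 and grown with FLT3 ligand, cells transduced with human wild-type FLT3, cells transduced with the empty pLXRN retroviral vector, and untransduced parental cells. ITD cells grew without IL-3, the parental, vector and wild-type cells had mouse IL-3 at 1 ng/mL, and the ligand was given at 20 ng/mL; the protocol does not say outright whether IL-3 stayed in the ligand cultures. Transduced cells were polyclonal, and vector and wild-type cells were selected with G418. Each mutant was seen on 1 array. The titles call the arrays of a control pair biological replicates, but nothing states that they were separately made lines. The spread within a control pair may therefore be technical. The p-values of the contrasts rest on 1 spread shared by all groups, which comes mostly from the 9 ITD lines. They do not measure how separately made control lines would differ. The ITD receptor and the absence of IL-3 cannot be told apart.

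The values were log2 signals, and a gene's value averaged the probe sets of that gene whose mean over the 17 arrays exceeded 4.599. The arrays had medians of 4.63 to 4.69. Flt3, for which mouse and human transcripts were not separated, lay between 7.08 and 7.32 in ITD lines, at 6.88 and 6.89 with wild-type FLT3 and ligand, at 6.73 and 6.79 with wild-type FLT3, at 5.15 and 5.24 with the vector and at 5.12 and 5.37 in parental cells, which matches the labels. Of the myeloblast markers, Mpo lay at or above 10.25, Prtn3 at or above 11.31, Ctsg at or above 11.92 and Myb at or above 9.94 on every array, while Cd34 (at most 5.80) and Kit (at most 5.88) were near background throughout. Group means were fitted for all genes together with limma, and a member counts as called where its p, adjusted over the 20227 genes by Benjamini-Hochberg, is under 0.05. Differences are in log2 units, with their standard error (SE). In RNA from whole cultures, fewer cells of a type and less RNA per cell cannot be told apart.

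Of the 41 members, 19 were called in at least 1 of 8 contrasts, 4 were called for variation among the ITD lines, and 21 were called nowhere. Among those called nowhere, 10 stayed below 6.341, the 75th percentile of probe set means, on all 17 arrays: the integrin genes Itga1, Itga2, Itga3, Itga7, Itga9, Itgad and Itgax and the tetraspanin genes Tspan6, Tspan9 and Tspan12. At such signals a low level cannot be told from none.

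**Figure D1:**
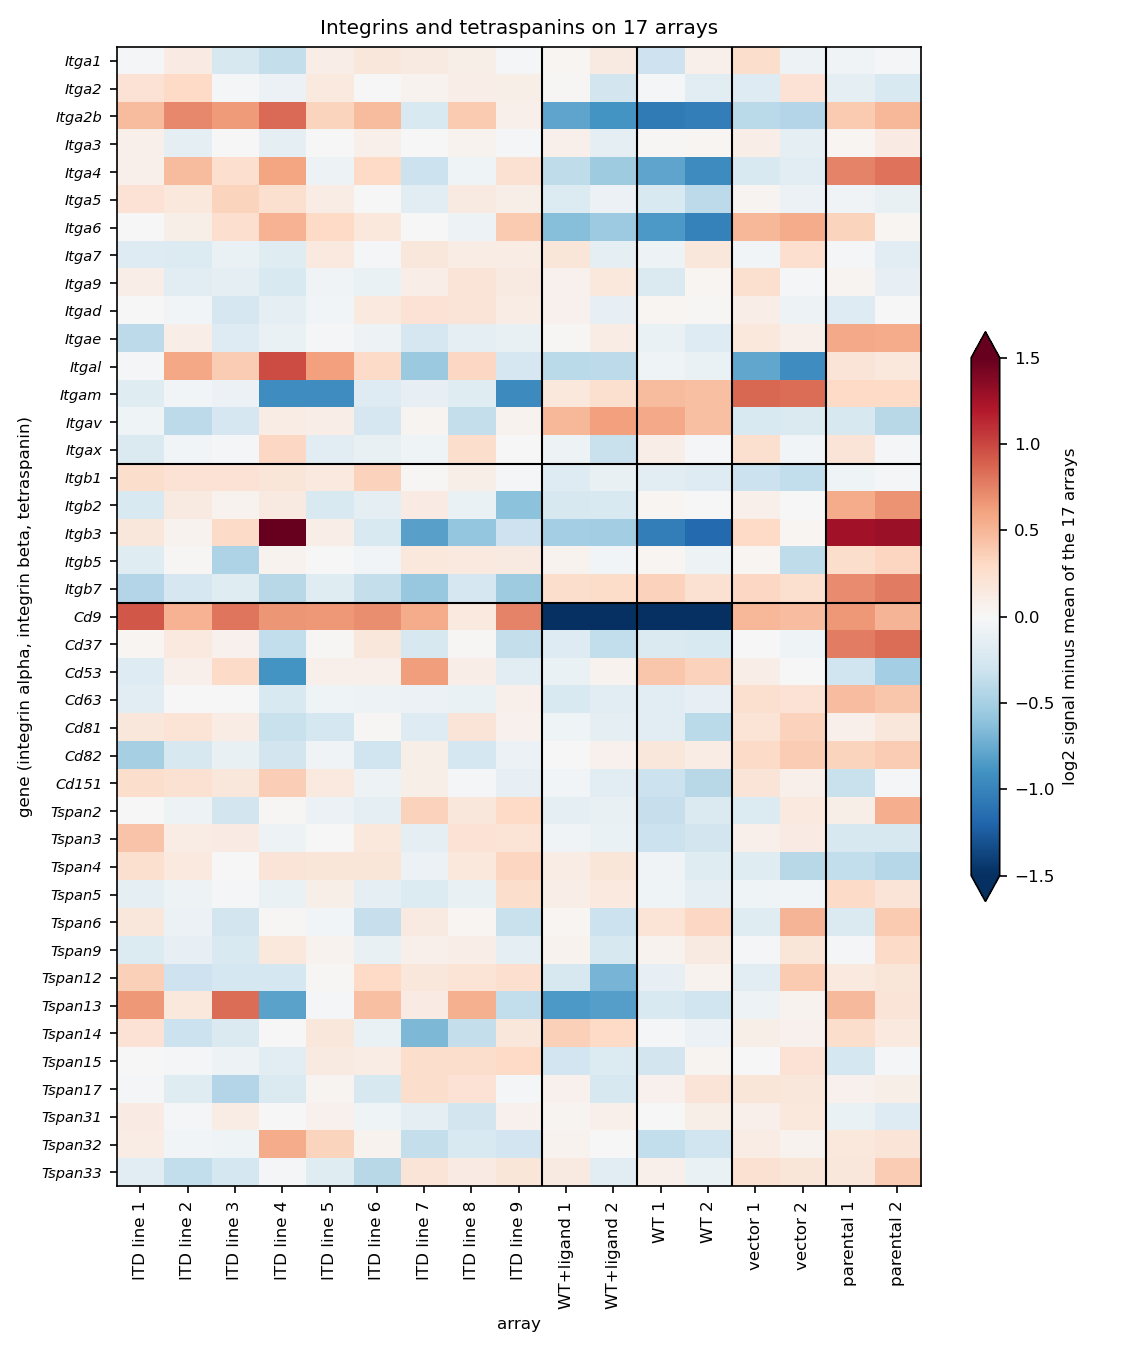
Log2 signal of 41 integrin and tetraspanin genes (rows) on 17 arrays (columns), each minus the gene's mean over the 17 arrays; colours saturate at 1.5 in either direction. Cd9, Itga2b, Itga4 and Itga6 are low on the 4 arrays with wild-type FLT3, Itgb7 and Itgam are low on the 9 ITD arrays, and Itgb3 is high in parental cells and ITD line 4.

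Promoter sequences are shown for the members with the clearest group differences, Cd9 and Itga2b, which were lowest with wild-type FLT3, and Itgam and Itgb7, which were lowest with ITD. They are the RefSeq sequences on build GRCm38.p6 from 250 bases before to 50 bases after the annotated start, 5′ to 3′ along the gene. Of the 9 members described array by array, 6 had such an entry. Capitals mark every match, on either strand, to GATAA (the core read by GATA factors), GAGGAA (a core read by the ETS factor PU.1) or TTCNNNGAA (a core read by STAT factors).
Cd9, chr6:125494711-125495010, minus strand: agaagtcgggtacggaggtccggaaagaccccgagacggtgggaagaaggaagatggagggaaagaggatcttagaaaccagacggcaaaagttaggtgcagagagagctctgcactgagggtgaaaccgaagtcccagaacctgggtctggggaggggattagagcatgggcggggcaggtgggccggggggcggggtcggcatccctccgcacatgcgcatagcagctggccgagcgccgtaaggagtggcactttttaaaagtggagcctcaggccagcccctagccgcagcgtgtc
Itga2b, chr11:102469834-102470133, minus strand: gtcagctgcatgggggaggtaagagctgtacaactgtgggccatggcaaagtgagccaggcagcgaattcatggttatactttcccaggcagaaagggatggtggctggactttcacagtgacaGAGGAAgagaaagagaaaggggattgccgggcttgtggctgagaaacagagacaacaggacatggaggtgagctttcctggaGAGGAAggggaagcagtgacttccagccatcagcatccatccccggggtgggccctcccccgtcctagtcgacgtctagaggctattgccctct
Itgam, chr7:128062390-128062689, plus strand: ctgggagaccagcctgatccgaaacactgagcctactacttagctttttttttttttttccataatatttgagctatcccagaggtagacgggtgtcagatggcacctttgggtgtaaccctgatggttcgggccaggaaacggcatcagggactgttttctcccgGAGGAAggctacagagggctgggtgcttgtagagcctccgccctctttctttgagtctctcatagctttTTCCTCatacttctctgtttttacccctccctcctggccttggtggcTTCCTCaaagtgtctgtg
Itgb7, chr15:102231886-102232185, minus strand: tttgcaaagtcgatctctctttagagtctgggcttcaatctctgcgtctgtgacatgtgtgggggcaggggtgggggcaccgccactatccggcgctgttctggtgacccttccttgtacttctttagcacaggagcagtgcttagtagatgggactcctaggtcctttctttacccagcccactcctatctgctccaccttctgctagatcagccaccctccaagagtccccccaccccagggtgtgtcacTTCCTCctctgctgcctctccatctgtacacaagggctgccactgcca
GAGGAA matched 3 times in the Itgam window, 2 times in that of Itga2b, 1 time in that of Itgb7 and 1 time in that of Tspan32, and it was found in 28.3% of all 32851 promoter windows of this length. GATAA matched only in the Tspan32 window among the 6, against 25.4% of all windows, and TTCNNNGAA in none of the 6, against 8.3% of all windows. No match overlapped another in these windows. These are letter matches within the windows searched, not sites.

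The comparison of ITD lines with the normal receptor gave the largest single difference in the set. Cd9, a tetraspanin of platelets, eosinophils, basophils and mast cells that binds integrins and the immunoglobulin superfamily proteins Igsf8 and Ptgfrn, rose with ITD. It had a lowest value of 9.14, a median of 9.66 and a highest value of 9.92 over the 9 ITD lines, against 6.92 and 6.95 with wild-type FLT3. With ligand the wild-type cells stood at 7.16 and 7.12, the vector cells at 9.49 and 9.45 and the parental cells at 9.64 and 9.50. No ITD array came near a wild-type array with or without ligand, while ITD, vector and parental arrays lay within a range of less than 1. The difference was 2.69 ± 0.14 (limma, adjusted p 1.54e-08), or 6.46-fold, against wild-type FLT3 and 2.49 ± 0.14 (adjusted p 5.29e-08) against wild-type FLT3 with ligand. It was 0.16 ± 0.14 (adjusted p 0.493) against the vector and 0.06 ± 0.14 (adjusted p 0.841) against parental cells, and wild-type FLT3 differed from the vector by -2.54 ± 0.18 (adjusted p 1.16e-06). The line with wild-type FLT3 was thus the one that stood apart. All 12 used Cd9 probe sets were higher on every ITD array than on both wild-type arrays, where 6.15% of all used probe sets were.

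Among integrin alpha chains, 3 further genes were lowest on the arrays with wild-type FLT3. Itga2b encodes the alpha chain of the platelet fibrinogen receptor. Its values in ITD lines were 10.67 at the lowest, 11.38 at the median and 11.75 at the highest, against 9.84 and 9.87 with wild-type FLT3. They were 10.11 and 10.00 with wild-type FLT3 and ligand, 10.50 and 10.46 with the vector and 11.30 and 11.40 in parental cells. ITD lines lay above all wild-type and vector arrays and spanned the parental ones. The difference was 1.46 ± 0.19 (adjusted p 0.000188) against wild-type FLT3, 1.26 ± 0.19 (adjusted p 0.000707) against wild-type with ligand, 0.83 ± 0.19 (adjusted p 0.00702) against the vector and -0.03 ± 0.19 (adjusted p 0.939) against parental cells.

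Itga6, whose product binds laminin, had a lowest value of 8.84, a median of 9.08 and a highest value of 9.44 in ITD lines, against 8.06 and 7.91 with wild-type FLT3. It stood at 8.28 and 8.38 with wild-type FLT3 and ligand, at 9.42 and 9.48 with the vector and at 9.25 and 8.95 in parental cells. The 4 arrays with wild-type FLT3 were the lowest of the 17. It was higher in ITD lines by 1.11 ± 0.14 (adjusted p 0.000118) than with wild-type FLT3 and by 0.77 ± 0.14 (adjusted p 0.00228) than in the ligand-treated cells, and wild-type FLT3 differed from the vector by -1.46 ± 0.17 (adjusted p 0.00017).

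Itga4, the alpha chain that binds VCAM-1 and fibronectin, had a lowest value of 6.27, a median of 6.82 and a highest value of 7.18 in ITD lines, against 5.80 and 5.65 with wild-type FLT3. The other arrays were at 6.21 and 6.06 with wild-type FLT3 and ligand, at 6.36 and 6.44 with the vector and at 7.34 and 7.41 in parental cells. Parental cells were highest, ITD lines overlapped the vector arrays, and the wild-type arrays were lowest. The wild-type arrays with and without ligand and the lowest ITD line lay below 6.341, where a low level cannot be told from none. ITD exceeded wild-type FLT3 by 1.03 ± 0.17 (adjusted p 0.0015) and the ligand-treated cells by 0.62 ± 0.17 (adjusted p 0.0442), and was lower than parental cells, at -0.62 ± 0.17 (adjusted p 0.0195). The call against wild-type FLT3 was lost without the second wild-type array, where the difference was 0.96. The vector line itself was lower than parental cells, at -0.97 ± 0.22 (adjusted p 0.0278).

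**Figure D2:**
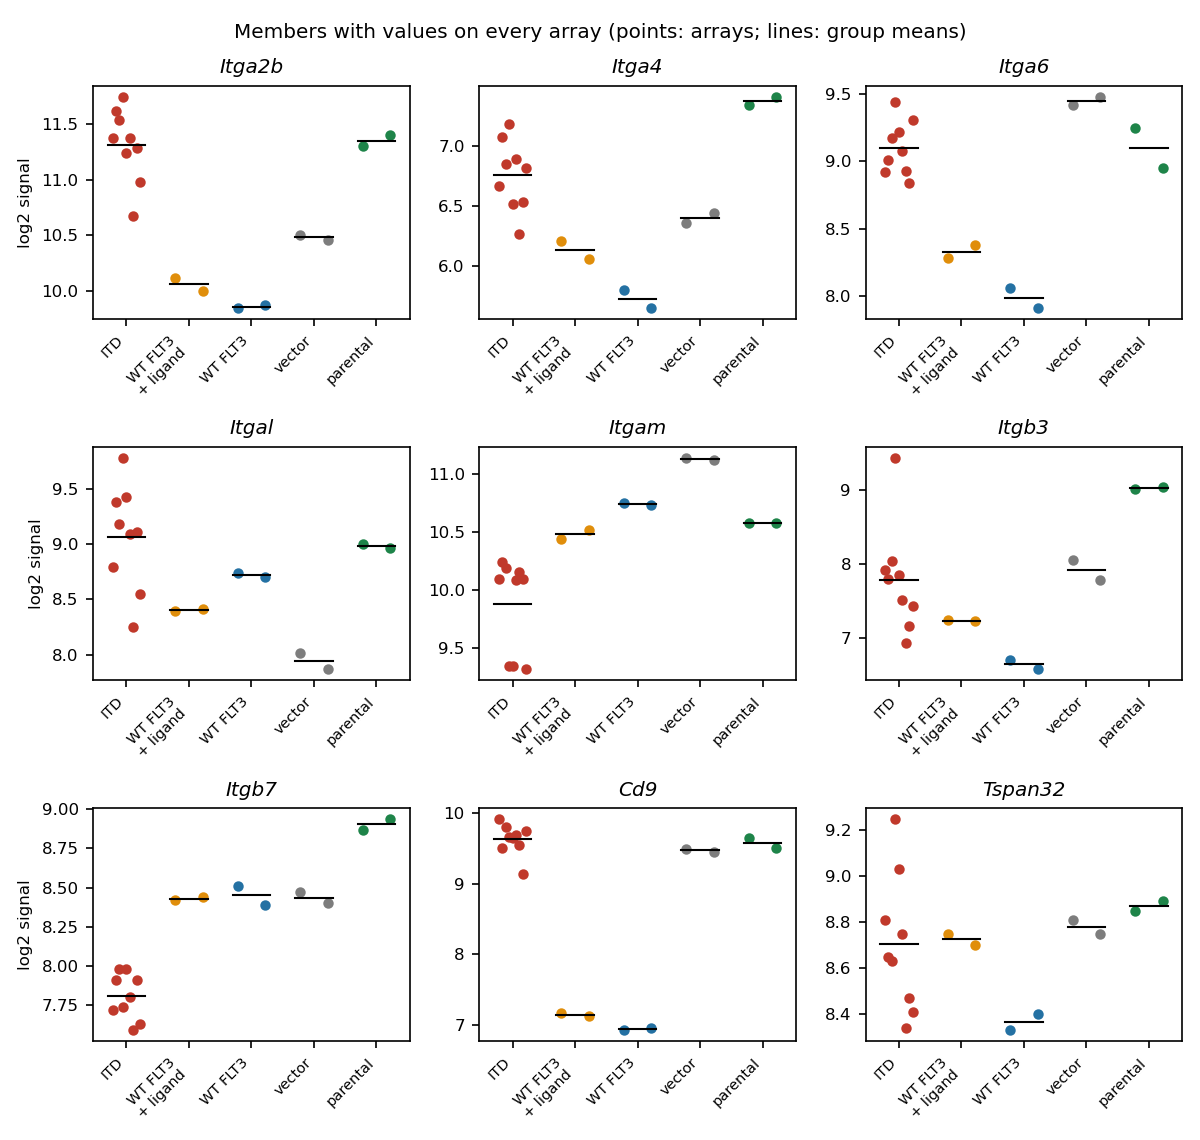
Log2 signal of the 9 members described array by array, by group; points are arrays (9 ITD lines and 2 of each other group), black lines are group means, and the axes do not start at 0. Cd9 separates the 4 wild-type FLT3 arrays from all others, Itgb7 and Itgam separate the 9 ITD lines, and Itgb3 has a single ITD line at 9.44.

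Other members called against wild-type FLT3 changed by less than 1. Itga5, the fibronectin receptor alpha chain, was higher in ITD lines by 0.44 ± 0.11 (adjusted p 0.0191). Cd151, a tetraspanin that holds laminin-binding integrins, was higher by 0.48 ± 0.12 (adjusted p 0.0201) and Tspan3 by 0.41 ± 0.11 (adjusted p 0.0337). None of these genes was called against the vector, at 0.15 ± 0.11 for Itga5, -0.02 ± 0.12 for Cd151 and 0.01 ± 0.11 for Tspan3. Only Tspan3 was called against parental cells, at 0.35 ± 0.11. Itgb1, the shared beta chain of the fibronectin, VCAM-1 and laminin receptors, lay between 10.78 and 11.15 in ITD lines, against 10.62 and 10.64 on the wild-type arrays, and rose by 0.34 ± 0.08 (adjusted p 0.0216). It was also higher than with the vector, by 0.50 ± 0.08 (adjusted p 0.000871), while the difference of 0.20 ± 0.08 from parental cells, at 10.74 and 10.79, was not called. Itgav, the alpha chain of vitronectin receptors, went the other way: it lay between 8.0 and 8.50 in ITD lines, against 8.96 and 8.84 with wild-type FLT3 and 8.16 and 8.17 with the vector. The difference of ITD from wild-type FLT3 was -0.62 ± 0.13 (adjusted p 0.00778), and wild-type FLT3 exceeded the vector by 0.73 ± 0.17 (adjusted p 0.0125).

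In all, 11 members were called in ITD minus wild-type FLT3, which was 26.8% of the members beside 7.71% of all genes. Of these 8 were higher, beside 3.27% of all genes, and 3 lower, beside 4.44%. All 9 ITD arrays lay above both wild-type arrays for 9 members, beside 5.57% of all genes, and below both for 5, beside 9.33%. Of the 20 integrins 8 were called and of the 21 tetraspanins 3. The median difference was 0.08 over the members and -0.04 over all genes. Against wild-type FLT3 with ligand 7 members were called, or 17.1% beside 5.80% of all genes, 5 of them higher (1.72% of all genes) and 2 lower (4.08%). Both counts fell on leaving out either array of the wild-type group compared. The count against wild-type FLT3 with ligand also fell without any one parental, vector or unstimulated wild-type array. It was 5 without ITD line 1, 2, 3 or 6, 8 without line 4 or 5 and 9 without line 7.

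Markers of other blood cell types moved in the same comparison. Of 5 eosinophil markers 3 rose, among them Epx by 4.58 ± 0.45 (adjusted p 1.78e-05), of 10 megakaryocyte and platelet markers 3 rose, Gata1 by 2.35 ± 0.29 (adjusted p 0.00014), Gp9 by 2.25 ± 0.35 (adjusted p 0.000868) and Gp5 by 1.20 ± 0.35 (adjusted p 0.0453), and of 10 mast cell and basophil markers 2 rose, Prss34 and Cpa3. The megakaryocyte and platelet list averaged 6.67 to 7.57 over the ITD arrays, against 6.22 and 6.29 with wild-type FLT3 and ligand, 6.08 and 6.29 with wild-type FLT3, 6.85 and 6.92 with the vector and 7.54 and 7.58 in parental cells. The eosinophil list averaged 6.53 to 8.62 in ITD lines, against 5.45 and 5.50 with wild-type FLT3 and ligand, 5.43 and 5.68 with wild-type FLT3, 7.55 on both vector arrays and 8.96 and 9.20 in parental cells. The mast cell and basophil list averaged 7.06 to 7.90 in ITD lines, against 6.56 on both arrays with wild-type FLT3 and ligand, 6.66 and 6.78 with wild-type FLT3, 7.51 and 7.59 with the vector and 8.79 and 8.92 in parental cells. On both lists every parental array exceeded every ITD array. Within the lists the markers were uneven: Kit, Tpsb2 and Tpsab1 of 10 mast cell and basophil markers, Il5ra and Ccr3 of 5 eosinophil markers and Gp1bb and Gp6 of 10 megakaryocyte and platelet markers stayed below 6.341 on every array, while Fcer1a and Mcpt8, Epx, and Pf4 and Nfe2 of the same lists stayed above it on every array. With wild-type FLT3, Gp9, Gp5 and Prss34 averaged 6.0, 5.18 and 5.9, also below 6.341. The part of these cell types in the Cd9, Itga2b, Itga6 and Itga4 differences was not tested. Lymphoid markers had no called member of 9 in any of the 8 contrasts.

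On every ITD array Itgb7 and Itgam lay below every array of the other 4 groups. Of all genes, 1.39% lay below the 6 IL-3-grown control arrays on every ITD array. The share with the ligand arrays added was not counted. Itgb7 encodes the beta chain that pairs with the Itga4 product in the receptor for the gut addressin MAdCAM-1. Its values in ITD lines were 7.59 at the lowest, 7.80 at the median and 7.98 at the highest. The values were 8.42 and 8.44 with wild-type FLT3 and ligand, 8.51 and 8.39 with wild-type FLT3, 8.47 and 8.40 with the vector and 8.87 and 8.94 in parental cells. No ITD array overlapped any control array, and the lines stayed within a narrow range. The difference from the unweighted mean of the 3 IL-3-grown control groups was -0.79 ± 0.07 (adjusted p 1.86e-06), and it was -0.64 ± 0.11 (adjusted p 0.0013) against wild-type FLT3, -0.63 ± 0.11 (adjusted p 0.000856) against the vector and -1.09 ± 0.11 (adjusted p 2.75e-06) against parental cells. Of 19 Itgb7 probe sets 10 were lower on all ITD arrays than on all 6 IL-3-grown control arrays, where 1.21% of all used probe sets were.

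Itgam encodes CD11b, the alpha chain of a myeloid complement receptor, which pairs with the Itgb2 product. It had a lowest value of 9.32, a median of 10.10 and a highest value of 10.24 in ITD lines. The values were 10.44 and 10.52 with wild-type FLT3 and ligand, 10.75 and 10.73 with wild-type FLT3, 11.14 and 11.12 with the vector and 10.58 on both parental arrays. ITD lines 4, 5 and 9 stood at 9.35, 9.35 and 9.32 and the other 6 between 10.09 and 10.24, so every line was below every control but by unequal amounts. It fell by 0.94 ± 0.15 (adjusted p 0.000424) against the IL-3-grown controls, by 1.25 ± 0.23 (adjusted p 0.00167) against the vector, by 0.86 ± 0.23 (adjusted p 0.0291) against wild-type FLT3 and by 0.70 ± 0.23 (adjusted p 0.0437) against parental cells, while against wild-type FLT3 with ligand the difference of -0.60 ± 0.23 was not called (adjusted p 0.146). Of 41 Itgam probe sets 29 were lower on all ITD arrays than on all 6 IL-3-grown control arrays.

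**Figure D3:**
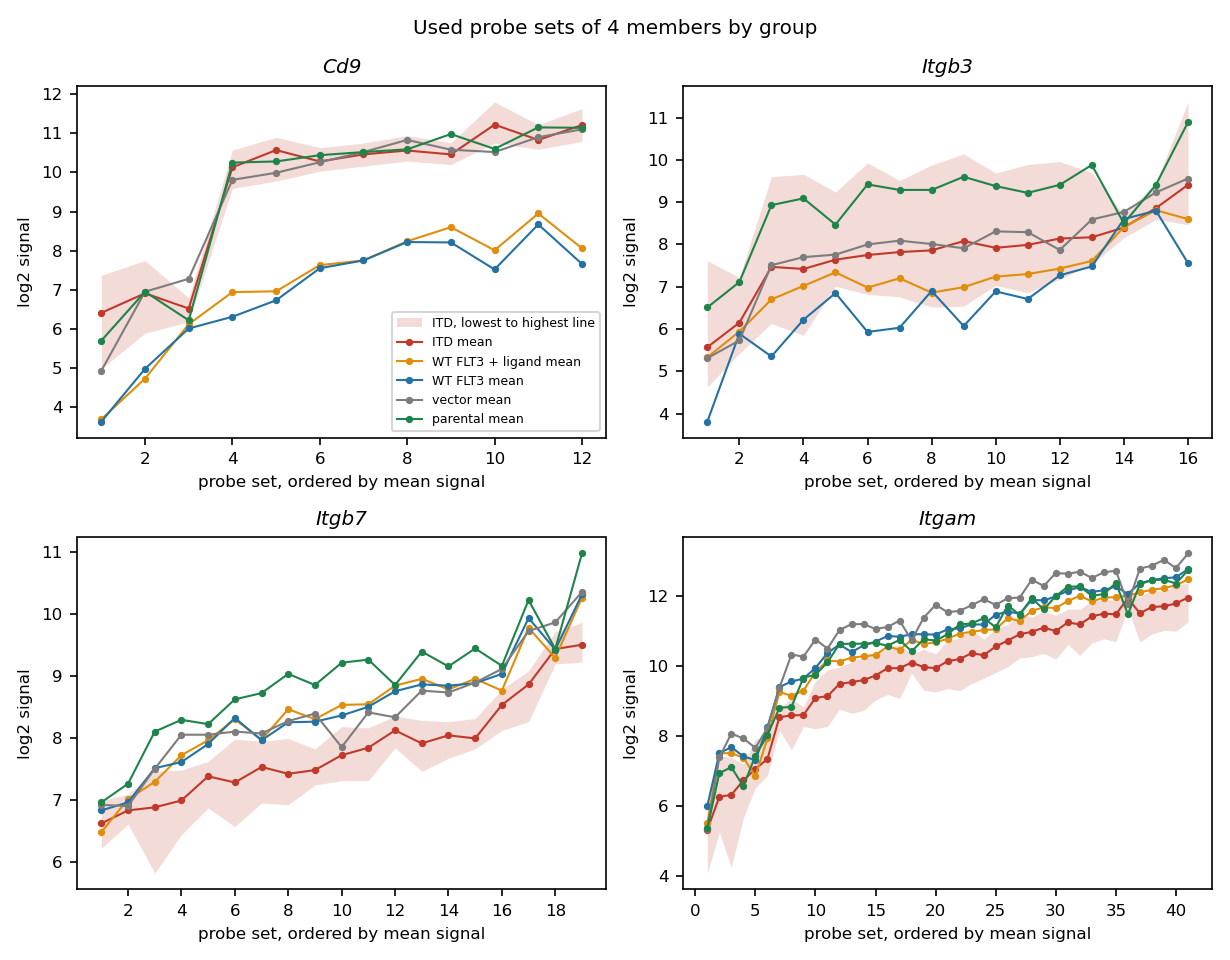
Log2 signal of every used probe set of Cd9, Itgb3, Itgb7 and Itgam, ordered by mean signal and not by position in the gene; lines are group means and the band spans the lowest to the highest of the 9 ITD lines. The wild-type FLT3 groups are lower across 12 Cd9 probe sets, and the ITD band of Itgb3 reaches the parental level.

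Other beta chains and tetraspanins differed from some controls only. Itgb2, the beta chain of the leukocyte integrins, lay between 10.49 and 11.23 in ITD lines, against 11.13 and 11.10 with wild-type FLT3, 11.18 and 11.11 with the vector and 11.66 and 11.77 in parental cells. It was called against parental cells, at -0.71 ± 0.14 (adjusted p 0.00202), and not against the vector (-0.15 ± 0.14) or wild-type FLT3 (-0.11 ± 0.14). Cd82, a tetraspanin that restrains cell motility, was the remaining member whose 9 ITD arrays all lay below the IL-3-grown controls: 9.01 at the lowest, 9.27 at the median and 9.60 at the highest, against a lowest control array of 9.62. It differed by -0.47 ± 0.08 (adjusted p 0.000394) from these controls. Cd82 was called against the vector (-0.53 ± 0.11) and parental cells (-0.55 ± 0.11). It was not called against wild-type FLT3 without ligand (-0.33 ± 0.11) or with it (-0.23 ± 0.11). The ligand arrays, at 9.51 and 9.58, lay within the range of the ITD lines. Cd63, a tetraspanin of lysosomes and granules that marks basophil activation, fell by 0.24 ± 0.04 (adjusted p 0.00114), with the ITD lines between 11.76 and 12.06, but the wild-type arrays, at 11.82 and 11.86, lay within that range. Cd37, a leukocyte tetraspanin, was 0.86 ± 0.13 lower on the log2 scale in ITD lines than in parental cells (adjusted p 0.000241), and the vector line was lower too, at -0.83 ± 0.17 (adjusted p 0.0141). Itgae, the alpha chain that pairs with the Itgb7 product to bind E-cadherin, differed by -0.69 ± 0.11 (adjusted p 0.000231) between ITD lines and parental cells and by 0.02 ± 0.11 between ITD lines and wild-type FLT3. Parental arrays stood at 6.81 and 6.79. The ITD lines, at 5.85 to 6.34, and the wild-type arrays, at 6.14 and 6.04, were near or below 6.341. At such signals a low level cannot be told from none. Tspan4 was the tetraspanin called higher against both the vector, by 0.45 ± 0.10 (adjusted p 0.00629), and parental cells, by 0.55 ± 0.10 (adjusted p 0.000907). The Tspan4 difference of 0.27 ± 0.10 from wild-type FLT3 was not called. Its mean was 8.97 in ITD lines and also 8.97 with wild-type FLT3 and ligand.

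Over the members, 13 were called in ITD minus the IL-3-grown controls, or 31.7% beside 19.4% of all genes, 7 of them higher (11.2% of all genes) and 6 lower (8.15%). Against the vector 8 were called, or 19.5% beside 14.0% of all genes, 4 of them higher (8.82% of all genes) and 4 lower (5.21%). Against parental cells 2 members were called higher, beside 10.3% of all genes, and 9 lower, beside 6.72%. The ITD arrays lay entirely above the 6 IL-3-grown control arrays for no member, beside 0.974% of all genes, and entirely below for 3 members, Itgam, Itgb7 and Cd82, beside 1.39% of all genes. The SE of the contrast with 3 control groups leaves out the differences between those groups, and Cd9, at 0.97 ± 0.09 there (adjusted p 2.94e-06), overlapped vector and parental arrays. The counts fell to 4 and 3 against the vector without its first or second array, and to 7 and 5 against parental cells without the first or second parental array.

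Neutrophil and monocyte markers were lower beside Itgam. Of 10 neutrophil markers 7 fell and 1 rose and of 10 monocyte and macrophage markers 9 fell in ITD minus the IL-3-grown controls. In that contrast 8.15% of all genes were called lower and 11.2% higher. Mrc1, Ccr2 and Cx3cr1 of the monocyte and macrophage list stayed below 6.341 on every array, where a low level cannot be told from none. The neutrophil list averaged 7.18 to 8.44 over the ITD arrays, against 8.52 and 8.60 with wild-type FLT3 and ligand, 8.62 and 8.71 with wild-type FLT3, 9.09 on both vector arrays and 9.05 and 9.15 in parental cells. The monocyte and macrophage list averaged 6.42 to 7.18, against 8.09 and 8.12 with wild-type FLT3 and ligand, 7.83 and 7.94 with wild-type FLT3, 8.27 and 8.29 with the vector and 7.37 and 7.41 in parental cells. Their part in the Itgam and Itgb7 differences was not tested.

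**Figure D4:**
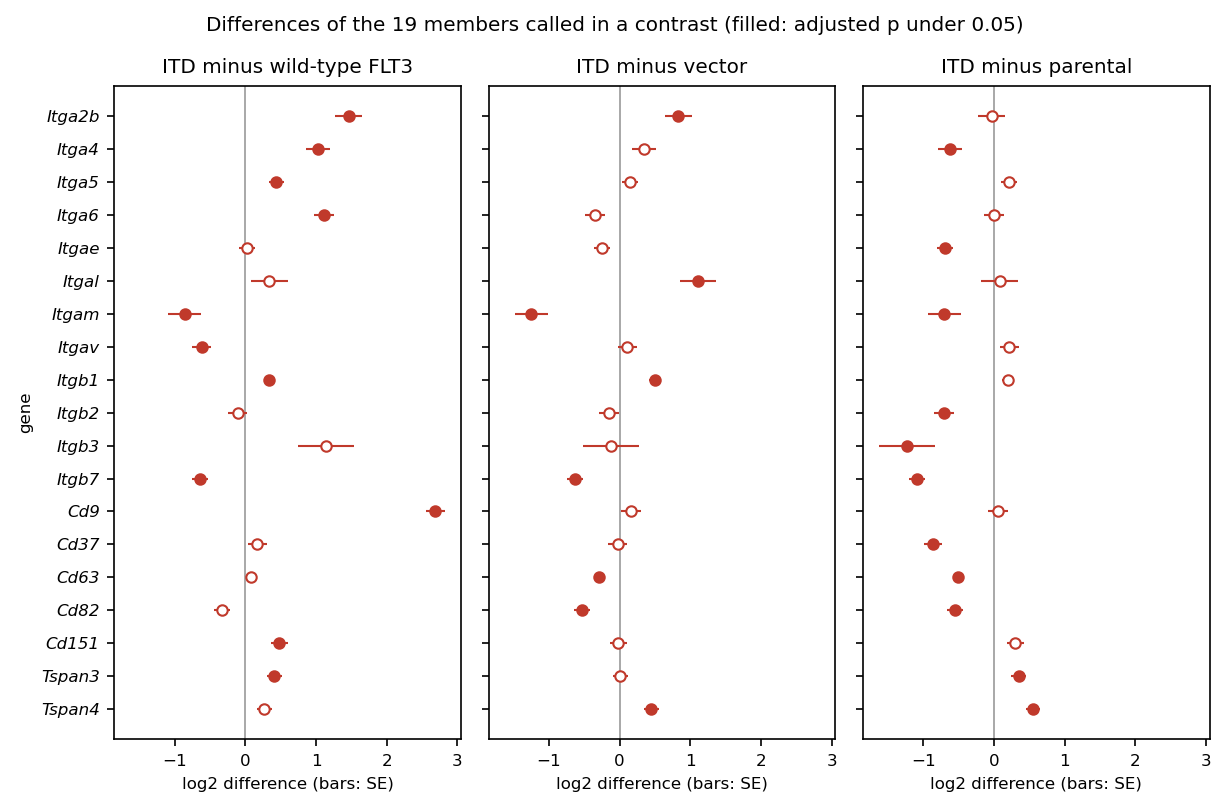
Log2 difference of ITD lines (9 arrays) from wild-type FLT3, vector and parental cells (2 arrays each) for the 19 members called in any of the 8 contrasts; bars are the SE of the fit and filled points have an adjusted p under 0.05. Cd9 is at 2.69 in the first panel and near 0 in the others, while Itgb7 and Itgam are below 0 in all 3.

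The ITD lines were compared with each other through a variance ratio, ITD arrays over control pairs. The ITD arrays are separately made lines with 1 array each, and the control pairs may differ only technically, so differences between mutants, lines and cultures cannot be told apart in this ratio. Of the 41 members 4 were called, or 9.76% beside 2.55% of all genes, and 18, or 43.9%, had an unadjusted p under 0.05, beside 24.3% of all genes. Itgb3, the beta chain that pairs with the Itga2b product, had the widest spread, with a standard deviation (SD) of 0.72 (one-sided F test, adjusted p 0.0476 over all genes). Line 4 stood at 9.44, and the other lines lay between 6.94 in line 7 and 8.04 in line 3. Control arrays were at 7.24 and 7.23 with wild-type FLT3 and ligand, at 6.71 and 6.58 with wild-type FLT3, at 8.05 and 7.78 with the vector and at 9.01 and 9.04 in parental cells. Line 4 thus exceeded the parental level while all other lines were below it. The call of ITD below parental cells, -1.23 ± 0.40 (adjusted p 0.0423), was lost on leaving out any of 14 of the 17 arrays, with differences from -1.25 to -1.16. The spread was 0.39 without line 4 and 0.69 without line 7, and was called in neither case.

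Itgal, the alpha chain of the lymphocyte integrin LFA-1 that binds ICAM-1, had a lowest value of 8.25, a median of 9.11 and a highest value of 9.78 in ITD lines. It stood at 8.40 and 8.41 with wild-type FLT3 and ligand, at 8.74 and 8.70 with wild-type FLT3, at 8.02 and 7.87 with the vector and at 9.00 and 8.96 in parental cells. The lines straddled the parental and wild-type arrays and all exceeded the vector arrays. The SD over the ITD lines was 0.47 (adjusted p 0.0399), and ITD exceeded the vector by 1.11 ± 0.26 (adjusted p 0.00949), a call lost without either vector array, where the difference was 1.19 or 1.04. Itgam had an SD of 0.41 (adjusted p 0.0319), with the division of lines given above. Tspan32, a tetraspanin of blood cells, had 8.34 at the lowest, 8.65 at the median and 9.25 at the highest in ITD lines, against 8.75 and 8.70 with wild-type FLT3 and ligand, 8.33 and 8.40 with wild-type FLT3, 8.81 and 8.75 with the vector and 8.85 and 8.89 in parental cells. Its SD was 0.30 (adjusted p 0.0454) and it was called in none of the 8 contrasts. Tspan13, Cd53 and Itga2b had larger SDs over the ITD lines, 0.52, 0.41 and 0.33, but were not called for variation. The ratio depends on the spread within the control pairs too, so a call does not rank the spread among the lines. Line 4 was the highest for Itgb3, Itgal, Tspan32, Itga2b and Itga4, and line 7 the lowest. The calls for Itgal and Tspan32 were lost without line 4, at an SD of 0.41 and 0.23, and without line 7, at 0.38 and 0.28.

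FLT3 ligand on wild-type FLT3 cells gave no called member, beside 0.00% of all genes called. No member had an unadjusted p under 0.05 in limma, where 1555 of all genes did. The SE of each contrast between control groups came mostly from the spread among the ITD lines. For Itgb3 that SE was 0.51, while its arrays stood at 7.24 and 7.23 with ligand and at 6.71 and 6.58 without. The lack of calls is therefore not a measure of no ligand effect. The largest differences among the members described array by array were those of Itgb3 (0.59 ± 0.51, adjusted p 0.838) and Itga4 (0.41 ± 0.22, adjusted p 0.704). Tspan13, a tetraspanin named after its values were seen, stood at 8.28 and 8.32 with ligand, against 8.92 and 8.85 without (-0.58 ± 0.38, adjusted p 0.764). Wild-type FLT3 against the vector gave 4 called members, or 9.76% beside 8.22% of all genes: Itgav higher (5.50% of all genes), and Cd9, Itga6 and Cd63 lower (2.71%). The vector against parental cells gave 2, or 4.88% beside 2.23% of all genes: Itga4 and Cd37, both lower (0.959% of all genes), and none higher (1.27%).

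The tetraspanins that escort the protease Adam10 to the surface are the members Tspan5, Tspan14, Tspan15, Tspan17 and Tspan33 and, outside the set, Tspan10. These 6 genes had no called difference in limma; 6 of their 48 tests had an unadjusted p under 0.05 and the differences ran from -0.45 to 0.38. Cd81 and Cd53, leukocyte tetraspanins, were not called in any contrast either. Cd53, also named after its values were seen, ranged from 10.78 in line 4 to 12.30 in line 7 among the ITD lines, the widest span of a tetraspanin after that of Tspan13, which ran from 8.34 in line 4 to 9.98 in line 3.

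Of the genes that act on integrins from inside the cell, 34 of 35 were measured, and 6 rose and none fell in ITD minus wild-type FLT3 (median 0.11), where 3.27% of all genes were called higher and 4.44% lower. Against the vector 1 rose and 8 fell (median -0.12), beside 8.82% and 5.21% of all genes called higher and lower, and against parental cells 1 rose and 9 fell (median -0.09), beside 10.3% and 6.72%. Fyb, an adaptor of integrin activation, rose by 1.06 ± 0.22 (adjusted p 0.00634) against wild-type FLT3, and the talin genes Tln2 and Tln1 by 0.72 ± 0.13 (adjusted p 0.00258) and 0.60 ± 0.10 (adjusted p 0.00183). The Tln2 mean with wild-type FLT3 was 6.31, below 6.341. Rasgrp2, which activates Rap1 upstream of talin, rose by 0.55 ± 0.16 (adjusted p 0.0393) but averaged 8.49 in ITD lines, against 9.09 with the vector and 9.27 in parental cells. Of 27 ligands and counter-receptors 2 rose and 3 fell against wild-type FLT3 (median 0.02). Thrombospondin 1 (Thbs1), a ligand of Itgav receptors, averaged 5.65 with ITD, 7.25 with wild-type FLT3 and ligand, 7.31 with wild-type FLT3, 7.72 with the vector and 5.64 in parental cells (ITD minus wild-type FLT3 -1.66 ± 0.29, adjusted p 0.00205). Its ITD and parental means lay below 6.341, where a low level cannot be told from none. Osteopontin (Spp1) differed by -1.34 ± 0.38 (adjusted p 0.0407) and the protease Adam8 by -0.99 ± 0.27 (adjusted p 0.034). Icam4, a red cell ligand of integrins, was higher than with wild-type FLT3 by 1.24 ± 0.29 (adjusted p 0.0157). Spp1 averaged 9.63 with ITD, 10.97 with wild-type FLT3, 10.69 with the vector and 9.75 in parental cells. The Icam4 means were 7.89 with ITD, 6.65 with wild-type FLT3, 7.42 with the vector and 8.75 in parental cells.

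Among 15 tetraspanin partner genes Cd44, the hyaluronan receptor, alone rose against wild-type FLT3, by 0.54 ± 0.15 (adjusted p 0.0312), and none fell (median -0.01). Cd44 averaged 8.39 in ITD lines and 7.85 with wild-type FLT3, but 8.58 with the vector and 9.09 in parental cells. Among 17 further integrin and tetraspanin genes Itgb4 rose by 0.49 ± 0.11 (adjusted p 0.0106) against wild-type FLT3. Its means were 8.07 in ITD lines, 7.58 with wild-type FLT3, 8.19 with the vector and 8.07 in parental cells. Itgb2l, a relative of Itgb2, fell by 1.76 ± 0.22 (adjusted p 0.000128) against wild-type FLT3. The Itgb2l means were 6.24 in ITD lines, 7.55 with wild-type FLT3 and ligand, 8.01 with wild-type FLT3, 7.08 with the vector and 7.29 in parental cells. The ITD mean lay below 6.341, where a low level cannot be told from none.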

How the data were processed

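RNA of 17 cultures in 5 groups was measured on exon arrays. The authors deposited log2 signals for each probe set. Affymetrix Expression Console 1.1 and RMA are named in the submitters' processing notes; that method corrects background, quantile-normalises the arrays and combines probes, and can compress low signals. The genome build is not given in the sources used here. Of 1256831 probe sets, 318760 had 1 gene symbol in the platform annotation, 6684 had several and were left out, and 931387 had none and were not used here. Older symbols were replaced by way of RefSeq synonyms (18006 current, 4227 changed, 63 kept unmatched).

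A gene's value was the mean of its probe sets with a mean over the 17 arrays above the median of that mean, 4.599 (237584 probe sets, 20227 genes). limma 3.58.1 in R 4.3.3 fitted 1 mean per group (lmFit, eBayes with a trend; 12 residual degrees of freedom), with 8 two-sided contrasts and Benjamini-Hochberg adjustment over all genes. Variation among ITD lines was an F ratio (8 and 4 degrees of freedom). The scripts were tested on simulated data. The number of arrays limits the precision. Values on every array are given for members called with a difference of at least 1 or called for variation; from each gene list up to 4 called genes with the largest difference from wild-type FLT3 are named. The members, lists and tests were chosen with earlier results of these data known. Alternatives were other probe set filters and summaries, a second quantile normalisation, a prior without trend, a replicate block, control groups left out of the averaged contrast, and each array left out.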

Additional observations from a re-analysis of the deposited data

Results flagged for a closer look

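Over the 41 members, the highest and the lowest of the 9 ITD arrays were each set against the gap to the nearest other array, and chance alone flags about 1 in 20 groups. Itgb3 in ITD line 4, at 9.44, lay far above the next line at 8.04, with the lowest at 6.94, a gap of 0.559 of the whole range. Itgb2 in ITD line 9, at 10.49, lay below the next line at 10.87, with the highest at 11.23, a gap of 0.506 of the whole range. Each of these lines is a different mutant seen on 1 array, so neither value has a replicate.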

How the results depend on the processing

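Of the 12 differences and spreads of the members described array by array, recomputed under 6 alternatives other than leaving out arrays, 54 of 64 values kept their call, 10 lost it and none changed direction. Those lost were the spreads of Itgal and Itgam (median of probe sets), of Itgb3 (no filter) and of Tspan32 (either filter change, the median, quantile normalisation again), and the Itgb3 difference from parental cells (no filter, -1.17; no trend and the replicate block, both -1.23); the cause was not tested. The replicate numbers of the control groups did not pair the arrays, with correlations of deviations from -0.118 to 0.092. With the replicate block 5 members were called against wild-type with ligand, where 7 were without it, 8 against parental cells, where 11 were, and as many as without it in the other contrasts. Members called for wild-type minus vector numbered 7 under the stricter filter and 8 after quantile normalisation again, against 4; those called for variation among ITD lines numbered 7 under the stricter filter, 2 with no filter and 2 with the median, against 4. Leaving out each array in turn gave 9 to 17 members called in ITD minus the IL-3-grown controls, 4 to 14 against wild-type, 2 to 9 against wild-type with ligand, 3 to 9 against the vector, 5 to 12 against parental cells, 0 for the ligand, 2 to 8 for wild-type minus vector (8 without ITD line 4 and 7 without line 7, 2 without any one vector or wild-type array), 0 to 5 for vector minus parental (4 without ITD line 4, 5 without line 7, 0 without any one vector or parental array) and 1 to 5 for variation (1 without line 4 or line 7). With 1 array left in a group, that array is assumed to vary like the others.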

Other observations

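Lines 4 and 7 held more of the members' extreme places among the 9 ITD lines than any other line. Line 4 was the highest line for 11 of the 41 members (26.8%) and the lowest for 10 (24.4%), where it was the highest for 15.7% and the lowest for 13.6% of all genes. Line 7 was the highest for 8 members (19.5%) and the lowest for 11 (26.8%), where it was the highest for 17.9% and the lowest for 16.8% of all genes. Lines 8 and 9 were the lowest for 14.3% and 13.7% of all genes, more often than line 4. Line 5 was at neither end for any member, against 11.7% of all genes at the high end and 7.0% at the low end. Line 4 was the lowest for the tetraspanin genes Cd37, Cd53, Cd63, Cd81, Tspan13 and Tspan15 and the highest for Cd151, Tspan9 and Tspan32, and it was the highest for the integrin genes Itga2b, Itga4, Itga6, Itgal, Itgav, Itgax, Itgb2 and Itgb3 and the lowest for Itga1, Itga2, Itga3 and Itga9. These are counts over genes that share 1 array per line, with no test.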
